A study of Mus musculus with 8 samples.

Results

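The steroid hormone receptors and cofactors described here are 7 genes of the 38293 listed in the bulk tables: Esr1, the estrogen receptor alpha, Pgr, the progesterone receptor, Nr3c1, the glucocorticoid receptor, Prlr, the prolactin receptor, and the partners Foxa1, Greb1 and Cited1. They were selected on their measured levels in these organoids, as a named group whose bulk differences were already known, so their own differences between genotypes are given as descriptions, without a test and without a p-value.

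The study asked what the transcription factor SOX4 does in luminal mammary tumor cells. Organoids came from MMTV-PyMT; MMTV-Cre; Ecadherin-mCFP mouse mammary tumors, so control and SOX4KO lines carried the same 3 transgenes, and every line was 1 clone. Bulk RNA-sequencing covered 2 control lines (WT1 and WT3) and 3 SOX4KO lines (H7, M4 and H4), and single-cell RNA-sequencing covered 1 control library (GR17) and 2 SOX4KO libraries (GR18 and GR19). All had grown for 4 days from single cells in DMEM/F12 with HEPES, antibiotics, B27 and FGF2, and the labels tie no single-cell library to a bulk line. The labels call the samples mammary tumor cells. Epithelial Epcam stood at 593 to 865 counts per 1000000 reads on genes (CPM) in the 5 bulk lines, and 2 of 5 immune, 3 of 4 endothelial and 3 of 4 adipocyte markers were at 0 in every line, while the macrophage marker Cd68 reached 14.1 CPM in H7. Of 6 fibroblast markers 0 were at 0 in every line, though Lum had 1 read in H7 and 0 in the other lines. Their sum was 200 to 309 CPM in control lines and 121 to 138 CPM in SOX4KO lines, mostly from Col1a1 and Pdgfra. Col1a2 had 4 to 9 reads a line, and Col3a1 and Dcn overlapped between genotypes. The collagen gene Col1a1 had a log2 fold change of -1.39 (adjusted p = 0.0624, edgeR). In single cells the sum was 7.23 to 12.1 CPM, and the part of this difference in the results below was not tested.

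Steroid receptors are transcription factors that wait in the cell for a hormone and then bind DNA as pairs. The prolactin receptor instead sits in the membrane and signals through JAK2 and STAT5 to milk protein genes. In the normal gland one kind of luminal cell, the hormone-sensing cell, carries Esr1, Pgr, Foxa1, Prlr and Cited1 together, and it answers hormones mainly by sending signals such as amphiregulin and RANKL to its neighbours. Foxa1 opens chromatin for the estrogen receptor, Cited1 is a coactivator of it, and Greb1 is both its target and its cofactor. The culture supplement B27 contains progesterone and corticosterone, and the MMTV promoter that drives PyMT and Cre in every line is itself hormone responsive.

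Reads counted on genes numbered 3050323 to 4678497 a bulk line, and of 11682 genes with enough reads to test, edgeR's quasi-likelihood test called 733 at an adjusted p under 0.1, 479 higher and 254 lower in SOX4KO. The calls thus cover 6.27% of tested genes, 4.10% higher and 2.17% lower, and in 36.9% of tested genes the lines of both genotypes did not overlap. Sox4 reads were not a check of the knockout: CPM were 295 and 374 in WT1 and WT3, and 199, 179 and 299 in H7, M4 and H4, and the transcript of an edited gene can persist. The summed level of 8 cycling markers was 495 to 539 CPM in control lines and 237 to 349 CPM in SOX4KO lines, with 5 of the 8 called lower, and its part in the results below was not tested. In bulk RNA, fewer cells of a type and less RNA per cell cannot be told apart.

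Of the 7 members, 5 passed the low-count filter. In 4 of these the lines of both genotypes did not overlap, with Esr1 and Nr3c1 higher and Foxa1 and Cited1 lower in SOX4KO. The genes were chosen on this contrast, so nothing is read from that count beside the background of 36.9%.

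Esr1, the receptor for estradiol, was higher in each SOX4KO line than in both control lines. Its CPM were 8.80 and 7.57 in WT1 and WT3, and 33.4, 17.6 and 25.2 in H7, M4 and H4. The lowest SOX4KO line thus stood 2 times above the highest control line, and the log2 fold change was 1.64 ± 0.32 (SE, 2 control against 3 SOX4KO lines). The reads behind this were few, 34 and 38 in the control lines and 49 to 128 in the SOX4KO lines. Per kilobase of exon Esr1 was the lowest of the 5 measured members in both genotypes, at 0.599 ± 0.0639 CPM per kilobase in control lines (SD, n = 2) and 1.86 ± 0.577 in SOX4KO lines (SD, n = 3). The single cells held too few molecules to read a direction, with 4 unique molecular identifiers (UMIs) in GR17, 7 in GR18 and 6 in GR19, each in a different cell. This is 1.08% of 369 cells for GR17 (95% exact binomial interval 0.296 to 2.75%), 1.90% of 369 for GR18 (0.766 to 3.87%) and 1.66% of 362 for GR19 (0.611 to 3.57%).

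Pgr, a classical estrogen-induced gene, was listed at 0 reads in all 5 bulk lines. A count of 0 allows up to 0.597 CPM in WT3, the deepest line, and up to 1.08 CPM in M4, the shallowest. In single cells Pgr had 1 UMI in GR17 and 0 in both SOX4KO libraries, and 0 of 369 cells in GR18 allows a share of up to 0.813% with 3 counts as the floor, which limits cells with a UMI and not cells that express the gene. Greb1 was at 0 in the 5 bulk lines too, and had 0 UMIs in GR17, 1 in GR18 and 0 in GR19. No difference in Pgr or Greb1 was detectable at this depth. Among 8 other markers of hormone-sensing cells, Tnfsf11, which encodes RANKL, and Calca had 0 reads in every line and amphiregulin (Areg) had at most 1, while 4 (Prom1, Ly6a, Wnt4 and Tbx3) had enough reads to test. In single cells Areg had 72 UMIs in GR17, 30 in GR18 and 14 in GR19.

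Nr3c1, the receptor for glucocorticoids, was among the well-expressed members and showed a small difference in bulk. CPM were 166 and 153 in WT1 and WT3, and 264, 174 and 215 in H7, M4 and H4. The genotypes did not overlap, but the lowest SOX4KO line was only 1.05 times the highest control line, and the log2 fold change was 0.45 ± 0.21 (SE). With 1 control library there is no test in single cells. There the order was the same, at 63.4 CPM for GR17 (95% Poisson interval 57.9 to 69.3), 87.0 for GR18 (80.7 to 93.7) and 101 for GR19 (93.8 to 108). These intervals, like all others here, cover counting error only. The ratio to control was 1.37 in GR18 and 1.59 in GR19. Cells with a UMI made up 64.0%, 75.3% and 82.0%, and when every cell was thinned to 10000 UMIs the shares were 47.0% for GR17 (41.6 to 52.5%), 51.2% for GR18 (45.7 to 56.7%) and 62.3% for GR19 (56.9 to 67.4%). At equal depth the intervals of GR17 and GR18 overlap and GR19 lies above both.

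**Figure D1:**
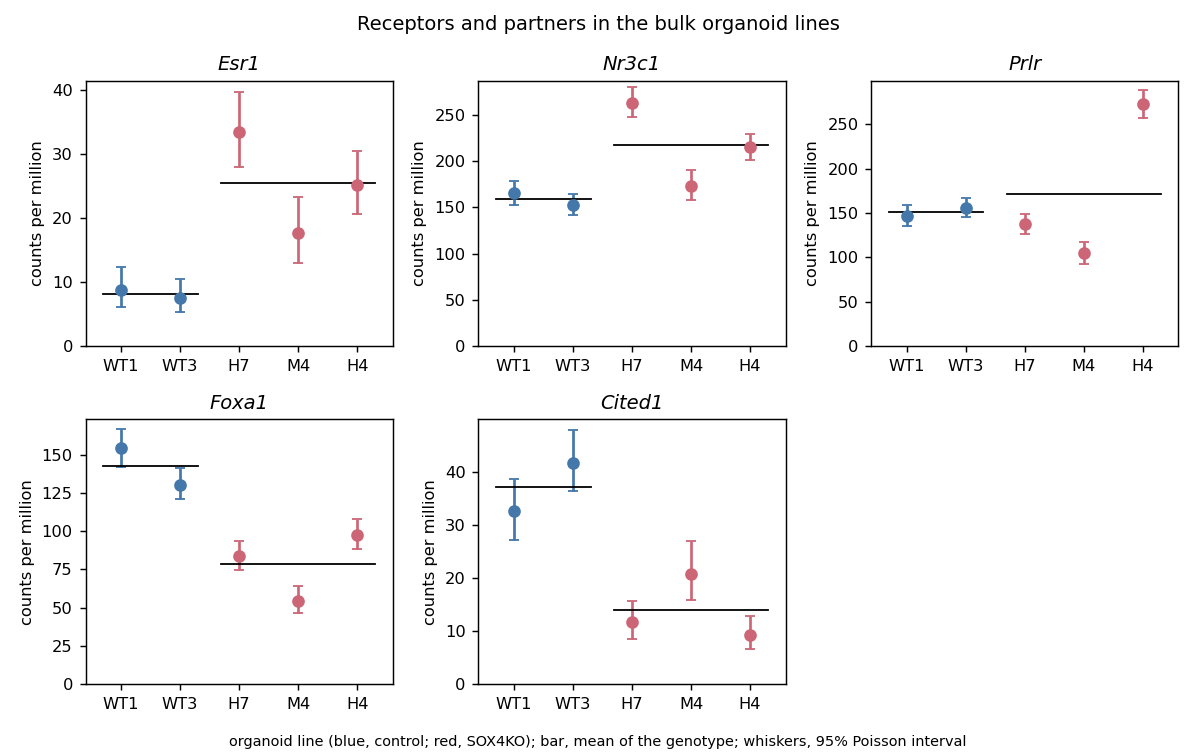
Bulk CPM (linear axes from 0) of 5 members in each organoid line, with 95% Poisson intervals of the count and the mean of each genotype as a black line. Esr1 is higher and Foxa1 and Cited1 are lower in each SOX4KO line than in both control lines, and for Prlr the line H4 alone stands at 273 CPM.

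Prlr overlapped between genotypes in bulk and was higher in both SOX4KO libraries in single cells. In bulk its CPM were 147 and 156 in WT1 and WT3, and 137, 104 and 273 in H7, M4 and H4. H4 was above both control lines and the other SOX4KO lines below them, so the genotypes overlapped, and the highest SOX4KO line was 2.61 times the lowest. The log2 fold change was 0.19 ± 0.36 (SE), and it turned to -0.32 without H4. In single cells it stood at 48.0 CPM for GR17 (43.2 to 53.1), 99.4 for GR18 (92.6 to 107) and 134 for GR19 (126 to 142). The ratios to control were 2.07 and 2.80. At equal depth cells with a UMI had the same order, from 31.4% for GR17 (26.5 to 36.7%) to 53.6% for GR18 (48.1 to 59.1%) and 64.9% for GR19 (59.6 to 70.0%), and the unthinned shares were 47.7%, 69.1% and 82.0%. Whether the single-cell libraries came from clones also sequenced in bulk is not stated, so the clone and the method cannot be told apart.

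Foxa1, the pioneer factor, was lower in SOX4KO in both kinds of data. Bulk CPM were 154 and 130 in WT1 and WT3, and 83.8, 54.7 and 97.7 in H7, M4 and H4. No SOX4KO line reached a control line, and the highest stood at 0.749 of the lowest control line. The log2 fold change was -0.85 ± 0.24 (SE). In single cells Foxa1 stood at 196 CPM for GR17 (187 to 206), 77.2 for GR18 (71.2 to 83.5) and 86.4 for GR19 (80.2 to 93.0). GR17 was thus 2.54 times GR18 and 2.27 times GR19. At equal depth 69.5% of GR17 cells held a UMI (64.2 to 74.4%), against 41.5% for GR18 (36.1 to 47.0%) and 41.8% for GR19 (36.5 to 47.2%), with 81.8%, 52.6% and 57.2% before thinning. Per kilobase of exon Foxa1 had the highest bulk level of the members in control lines, at 42.8 ± 5.08 CPM per kilobase (SD, n = 2). In SOX4KO lines it was 23.7 ± 6.59 (SD, n = 3) and Nr3c1 was 28.3 ± 5.86, neighbours that did not differ beyond their spread.

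The promoter of Foxa1 is shown because it holds the letters that SOX proteins bind. RefSeq promoter windows of 300 bases, 250 before and 50 after a start, were searched on both strands for the SOX core ACAAAG, which is in 18.7% of all 32851 windows (GRCm38.p6). Foxa1 has 1 window, on the minus strand at chr12:57546062-57546361, and it holds 4 cores. At least 4 occur in 11 windows, or 0.0335% of all. The cutoff of 4 is the count of this window itself, taken after it was seen, so that share is no test. The first pair, 145 and 137 bases before the start, points outward with 2 bases between, and the second pair lies across the start, with first bases 8 before it and at position 11 after it. Capitals mark the cores (ACAAAG or, on the other strand, CTTTGT).
Foxa1, chr12:57546235-57546264, minus strand: ttatactgCTTTGTaaACAAAGtgagggcc
Foxa1, chr12:57546093-57546122, minus strand: gggCTTTGTaggtgcgagcgtCTTTGTgcg
The 2 cores of the first pair overlap the forkhead core GTAAACA, a motif added after that sequence had been seen, which is in 3.65% of windows. By the GENCODE annotation of GRCm38 the stretch before this start also overlaps an exon. A match is a description of the letters and no evidence of binding.

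The other members' windows held fewer such letters. The RefSeq table gave windows for 6 of the 7 members, all but Nr3c1. A SOX core occurred in 1 other member, Pgr, with its first base at position 24 after the start. The full estrogen response element, GGTCANNNTGACC, is in 23 windows (0.0700%) and in none of the members' windows. Its single arm GGTCA, in 40.5% of all windows, was found in windows of Esr1, Foxa1, Greb1 and Cited1, and in the single windows below the capitals mark it on either strand.
Esr1, chr10:4611992-4612020, plus strand: tcctaatttcatGGTCAtaacagcctcgg
Greb1, chr12:16800958-16800986, minus strand: ccaagcaacaaaTGACCtctgtccccgga
Cited1, chrX:102252354-102252382, minus strand: ctgggcgagaagTGACCataatcagagac
Pgr, SOX core, chr9:8899844-8899873, plus strand: gtcactatcagtCTTTGTagtatttacggg
The 3 windows of Prlr held no SOX core and no estrogen receptor arm.

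Cited1, a coactivator that binds CBP and p300, was lower in the bulk SOX4KO lines. Its CPM were 32.6 and 41.8 in WT1 and WT3, and 11.7, 20.9 and 9.34 in H7, M4 and H4. The highest SOX4KO line stood at 0.640 of the lowest control line, and the log2 fold change was -1.44 ± 0.33 (SE). Single cells did not show this order: CPM were 14.5 for GR17 (12.0 to 17.5), 27.6 for GR18 (24.1 to 31.5) and 11.9 for GR19 (9.70 to 14.5). GR18 was 1.90 times GR17, and the intervals of GR19 and GR17 overlapped. Cited1 lay in few cells, with up to 15, 20 and 12 UMIs in one cell although only 9.21%, 15.4% and 11.9% of cells had any. The variance over the mean at equal depth was 3.58, 4.81 and 1.68 in GR17, GR18 and GR19, beside 2.80, 2.92 and 2.50 for Foxa1, 1.55 to 1.60 for Prlr and 1.12 to 1.35 for Nr3c1. It was thus above that of Foxa1 in GR17 and GR18 and below it in GR19. Its bulk and single-cell differences are therefore given side by side and not joined.

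**Figure D2:**
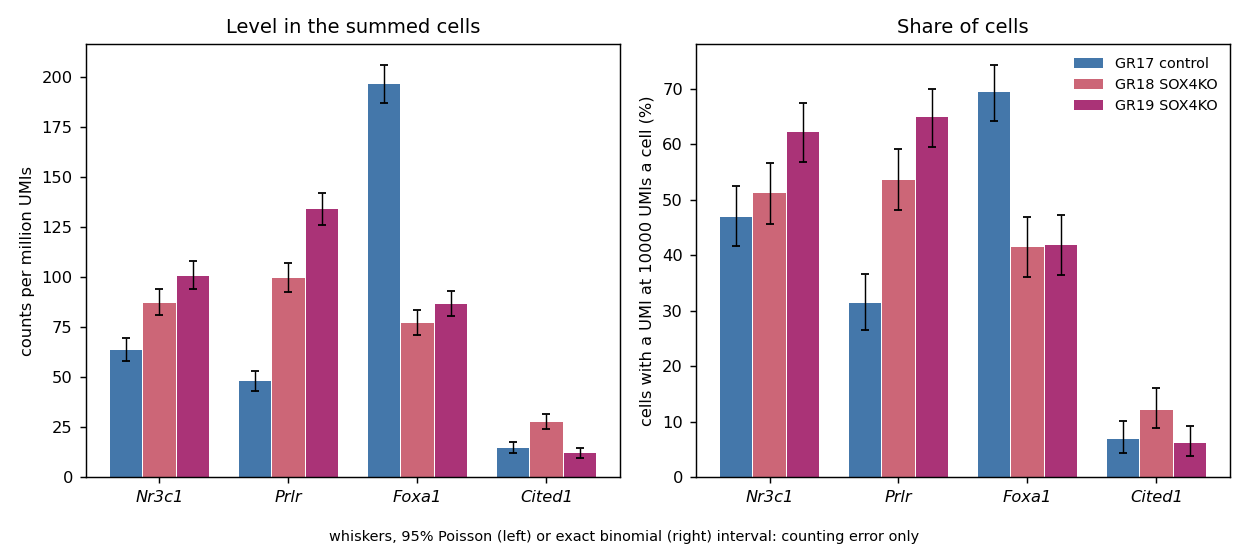
Level in the summed cells of each single-cell library (left, CPM of UMIs, 95% Poisson intervals) and share of cells with a UMI after thinning to 10000 UMIs a cell (right, percent, 95% exact binomial intervals). Foxa1 is highest in the control library GR17 on both scales, Prlr is lowest there, and Cited1 is highest in GR18.

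In single cells, Prlr and Foxa1 were the members past a 2-fold difference in both SOX4KO libraries, Prlr higher and Foxa1 lower, on the scale of log2(CPM + 1). Of 6303 genes with at least 20 CPM on average, 1.92% were at least 2-fold higher in both and 0.317% at least 2-fold lower. Prlr lay just past the limit, with a log2 difference of 1.04 in GR18 that became 0.99, within the limit, without wells over 2 times the median UMIs, and Cited1 in GR18 just inside it, with 0.88. The libraries were of like depth, with median UMIs of 19845, 20525 and 21876 a cell, and the 3 plates share 348 well numbers, which are positions and not shared cells. In wells under 1000 UMIs Foxa1 had 4, 2 and 2 UMIs and every other member 0. These wells held 4513, 4341 and 5150 UMIs in GR17, GR18 and GR19, so the few Foxa1 UMIs stood at 886, 461 and 388 CPM. Those levels are above the 196, 77.2 and 86.4 CPM of the cells. Their part in the Foxa1 difference was not tested.

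Within a library, Prlr, Foxa1 and Cited1 had weak positive correlations with each other, and those of Nr3c1 were slightly negative on average. Over log-normalized cells, averaged over the 3 libraries, Pearson's r was 0.20 between Prlr and Foxa1, 0.20 between Prlr and Cited1 and 0.24 between Foxa1 and Cited1. Nr3c1 gave -0.03 with Prlr, -0.09 with Foxa1 and -0.03 with Cited1. These are descriptions across 362 to 369 cells a library, which share a plate, a depth and sparse counts. At equal depth Cited1 was found in 13.3% of GR17 cells with Prlr and 3.93% of those without. The pair was 17.5% and 5.88% in GR18, and 7.21% and 4.17% in GR19. Cited1 by Foxa1 gave 19.7% with and 6.74% without in GR18 and 9.79% and 3.52% in GR19, but 6.90% and 6.86% in GR17. The 95% exact binomial intervals of these Cited1 shares were apart by Prlr in GR17 and GR18 and by Foxa1 in GR18. They overlapped in the rest. Foxa1 by Prlr gave 72.4% with and 68.1% without in GR17. That pair was 45.8% and 36.6% in GR18 and 45.0% and 35.8% in GR19, with overlapping intervals in each library.

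The genes most like Prlr and Foxa1 included luminal progenitor and milk protein genes. For Prlr they were Cd14, a luminal progenitor marker, with a mean r of 0.40 over 3 libraries, Mgst1 with 0.35 and the milk protein gene Csn3 with 0.34. For Foxa1 they were the transferrin gene Trf with 0.43, Wfdc2 with 0.32 and Cd14 with 0.32. No gene reached 0.2 with Nr3c1, for which Sparc was nearest at 0.19. Cited1 was seen in under 10% of GR17 cells and was not ranked. The r with a cell's total UMIs was 0.18 for Prlr, 0.15 for Foxa1 and 0.05 for Nr3c1.

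Clustering without the 7 members split the 1100 cells into 7 clusters, lettered by size. A and F were mostly control cells, 227 of 232 and 103 of 119, and C and G held 0 control cells. D and E had the highest summed luminal alveolar progenitor markers (Elf5, Kit, Aldh1a3, Cd14, Csn3 and Ltf), 3110 and 3990 CPM against 231 to 802 in the others, and lower summed basal markers, 398 and 419 CPM against 2332 to 4890. D had 2194 CPM of cycling markers and E had 471. Clusters are named by letter only. Markers of hormone-sensing cells other than the members summed to 27.2 to 91.0 CPM, highest in A. Prom1 alone made up 59.2 CPM of the sum in A, a cluster with a basal marker sum of 4406 CPM, so this sum names no cluster.

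Prlr and Cited1 had their highest levels in D and E. In GR17, where D and E held 30 cells, most of their UMIs still lay in the other clusters. Prlr had 279 UMIs there against 91 in D and E, and Cited1 had 70 against 42. Prlr stood at 170 CPM in D (158 to 183) and 196 in E (180 to 213), against 37.2 in A to 85.8 in B among the other clusters. Cited1 stood at 38.6 CPM in D and 57.0 in E, against 1.03 in C to 17.9 in F. For Foxa1 the libraries pooled gave 263 CPM in F and 164 in A, 129 in D, 127 in E and 49.7 in G, but F and A are mostly control cells and the control library is the highest in Foxa1. Within GR17 itself Foxa1 was 276 CPM in F (252 to 303) and 165.5 in A (155 to 177). D and E together had 254 CPM in that library (218 to 294), an interval that overlaps that of F. Within GR18 and GR19 Foxa1 was highest in D and E, at 108 to 122 CPM against 40.9 to 71.1 CPM in B, C and G. Nr3c1 varied least, from 61.9 CPM in F to 111 in B.

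**Figure D3:**
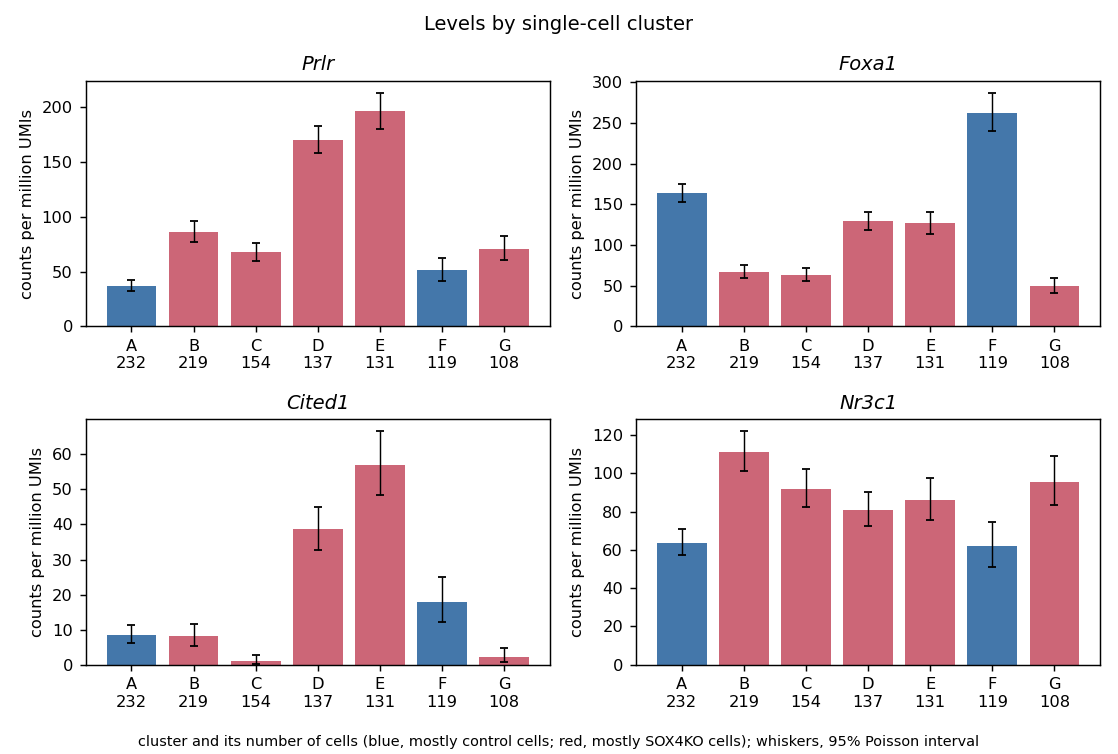
CPM of UMIs of Prlr, Foxa1, Cited1 and Nr3c1 in each cluster, with 95% Poisson intervals and the number of cells under each letter. Prlr and Cited1 peak in D and E, while Foxa1, with libraries pooled, is highest in the mostly control clusters F and A.

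Split by library, D and E together held 8.13% of GR17 cells (30), 29.0% of GR18 cells (107) and 36.2% of GR19 cells (131). Inside these clusters Prlr was 131 CPM for GR17 (105 to 160), 180 for GR18 (164 to 197) and 191 for GR19 (177 to 206). In the remaining cells it was 39.8 CPM for GR17 (35.2 to 44.7), 60.7 for GR18 (54.3 to 67.6) and 91.9 for GR19 (83.4 to 101). Prlr was thus higher in D and E within every library, and higher in the SOX4KO libraries in both parts of the cells. For Foxa1 the control library was above the others in both parts, at 254, 115 and 113 CPM in D and E and 191, 58.8 and 66.8 CPM in the rest. Cited1 in D and E was 60.3 CPM in GR17, 70.3 in GR18 and 25.4 in GR19, and in the rest 9.98, 7.03 and 1.90. Inside D and E the Cited1 intervals of GR17 and GR18 overlapped, 43.4 to 81.5 and 60.4 to 81.2 CPM, and GR19 lay below both. These clusters rest on genes that themselves differ between libraries, so their sizes are given without comparison.

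**Figure D4:**
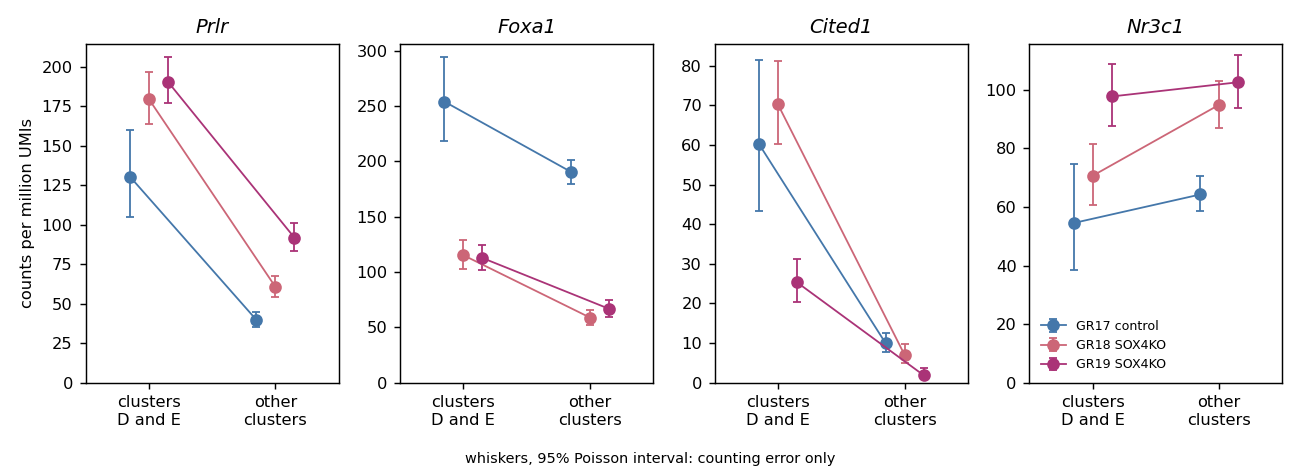
CPM of UMIs in clusters D and E together and in all other clusters, for each single-cell library, with 95% Poisson intervals. Within each library Prlr, Foxa1 and Cited1 are higher in D and E, and Foxa1 of GR17 stays above both SOX4KO libraries in both parts.

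Around the members, the other steroid receptors and nuclear receptors mostly did not pass the test. Of 5 other genes of the steroid receptor family described here, 3 were tested and 0 were called by edgeR, with 0 at an unadjusted p under 0.05 and 0 called by DESeq2, and 1, Nr3c2, was called without a low-count filter. The mineralocorticoid receptor Nr3c2, which also binds corticosterone, had 12.4 and 32.3 CPM in control lines and 52.4, 30.6 and 41.9 CPM in SOX4KO lines, which overlap. Esr2, the estrogen receptor beta, was at 0 in all lines. Of 26 other nuclear receptors 18 were tested, with 1 called higher and 1 lower, beside 4.10% and 2.17% of all tested genes. Nothing is read from that count. The circadian repressor Nr1d1 had a log2 fold change of 1.21 ± 0.29 (adjusted p = 0.0700, edgeR) and the retinoic acid receptor Rara of -0.77 ± 0.17 (adjusted p = 0.0577, edgeR). Nr1d1 lost its call without WT3 (0.79), H7 (1.11) or M4 (1.18), and Rara without WT1 (-0.82), WT3 (-0.71) or H7 (-0.74). Rarb was just outside the threshold on 0 reads in both control lines and 22, 1 and 13 reads in H7, M4 and H4.

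The coactivators, corepressors and chaperones that receptors share gave no calls. All 21 were tested, 0 were called by edgeR and 0 had an unadjusted p under 0.05, and their median log2 fold change was -0.03 beside 0.01 over all genes. The chaperone Hsp90aa1, of lowest p, had a log2 fold change of -0.43 ± 0.19 (adjusted p = 0.297, edgeR). Among 9 tested enzymes of steroid metabolism edgeR called 0, again with 0 at an unadjusted p under 0.05. Hsd17b11, of lowest p there, had -0.58 ± 0.29 (adjusted p = 0.339, edgeR). DESeq2 called 0 genes of either list.

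Luminal transcription factors that act with the estrogen receptor included 4 that fell. Of 12 tested, 4 fell and 0 rose, beside 2.17% lower and 4.10% higher among all tested genes. Since the lists were chosen with earlier results of these data known, nothing is read from that count. The median log2 fold change was -0.43. Xbp1, a secretory and unfolded protein factor, fell from 909 ± 1.39 CPM (SD, n = 2) to 333 ± 19.6 (SD, n = 3), a log2 fold change of -1.45 ± 0.17 (adjusted p = 0.0113, edgeR). The epithelial ETS factors Ehf and Spdef fell by 1.33 and 3.49 on the log2 scale (adjusted p = 0.0146 and 0.0457, edgeR), and Myb fell by 1.48 (adjusted p = 0.0431, edgeR). Gata3, the luminal master factor, stood at 78.7 to 100 CPM in control lines and 84.2 to 128 in SOX4KO lines. Without WT3 all 4 calls were lost (-3.43 to -1.41), and without WT1 those of Spdef (-3.56), Myb (-1.29) and Ehf (-1.24). Those 4 falls lay beside a luminal marker sum of 2629 to 2854 CPM in control and 1814 to 2361 in SOX4KO lines. Of 10 luminal markers 0 were called, and the part of this sum in the falls was not tested. In single cells Xbp1 had 354 CPM in GR17, 540 in GR18 and 447 in GR19, and Ehf 72.1, 122 and 77.4, both without the bulk direction. Myb kept it, with 33.2, 4.87 and 11.5 CPM. Gata3 had 60.5, 98.8 and 109 CPM in GR17, GR18 and GR19. Over the 7 genes of the list with at least 20 CPM the median log2 difference from GR17 was 0.295 in GR18 and 0.167 in GR19. Over all genes the medians were 0.009 and -0.048. The list as a whole thus did not fall in single cells.

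Hormone-responsive genes rose where they were called, though others were tested without a call and some estrogen targets were at or near 0 reads. Of 21 estrogen and progesterone responsive genes 11 were tested, and 3 rose and 0 fell, beside 4.10% and 2.17% of all tested genes. As this list too was chosen with earlier results known, nothing is read from that count. The chemokine gene Cxcl12 had 10.7 ± 9.32 CPM in control lines (SD, n = 2) and 135 ± 14.7 CPM in SOX4KO lines (SD, n = 3), a log2 fold change of 3.61 ± 0.47 (adjusted p = 0.0130, edgeR). Fhl2, a LIM domain coactivator, rose by 1.74 ± 0.31 and the cyclin gene Ccnd1 by 1.12 ± 0.22 on the same scale (adjusted p = 0.0298 and 0.0376, edgeR). Ccnd1 lost its call without WT1 (1.23) or WT3 (1.03), and Fhl2 without WT3 (1.40). The trefoil genes Tff1 and Tff3 were at 0 in every line. Ctsd and Igfbp5 were read well and were not called. Ctsd had 3772 to 9307 CPM over the 5 lines (log2 fold change 0.345, adjusted p = 0.718, edgeR). Igfbp5 had 15450 to 19110 CPM (log2 fold change 0.113, adjusted p = 0.865, edgeR), but 516, 1816 and 1883 CPM in GR17, GR18 and GR19. In single cells Cxcl12 had 6, 76 and 46 UMIs in GR17, GR18 and GR19, while Ccnd1 (963, 785 and 877 CPM) and Fhl2 (104, 92.9 and 81.5 CPM) were highest in the control library.

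Of 17 glucocorticoid responsive genes 15 were tested, and 2 rose and 0 fell, beside 4.10% and 2.17% of all tested genes. Nothing is read from this count either, as the list was chosen with earlier results known. Fkbp5, a chaperone of the receptor and one of its best known targets, had 25.4 ± 1.52 CPM in control lines (SD, n = 2) and 69.0 ± 17.7 CPM in SOX4KO lines (SD, n = 3), a log2 fold change of 1.44 ± 0.25 (adjusted p = 0.0275, edgeR). The stress gene Ddit4 rose by 0.69 ± 0.17 (adjusted p = 0.0765, edgeR). The list's median was 0.41 beside 0.01 over all genes, and Sgk1, with 123 and 159 CPM in control and 208 to 317 CPM in SOX4KO lines, did not pass. Fkbp5 lost its call without WT1 (1.38) or WT3 (1.51), and Ddit4 without WT1 (0.57), WT3 (0.83) or H7 (0.67), while DESeq2 called 5 genes of this list. Fkbp5 in single cells was 12.7 CPM in GR17, 16.9 in GR18 and 17.4 in GR19. Sgk1 had the other order, with 494, 447 and 351 CPM. Over the 10 genes of the list with at least 20 CPM the median log2 difference from GR17 was 0.24 in GR18 and -0.27 in GR19, beside 0.01 and -0.05 over all genes.

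Of 19 prolactin pathway genes 14 were tested and 1 rose, beside 4.10% of all tested genes, so nothing is read from that count. The casein gene Csn1s1 had 1.40 ± 0.577 CPM in control lines (SD, n = 2) and 34.1 ± 11.1 CPM in SOX4KO lines (SD, n = 3), a log2 fold change of 4.62 ± 0.45 (adjusted p = 0.00657, edgeR). In single cells it had 50.04 CPM in GR17, 689 in GR18 and 706 in GR19. Csn3, another casein gene, followed the order of Prlr over the SOX4KO lines, with 741, 165 and 2287 CPM in H7, M4 and H4, and 271 to 337 CPM in control lines. H7, however, was above both control lines for Csn3 and below both for Prlr. In single cells Csn3 had 101 CPM in GR17, 391 in GR18 and 1754 in GR19. The signal carriers were not called, with Stat5a at 23.9 to 28.7 CPM and Stat5b at 24.5 to 36.6 CPM over the 5 lines. Elf5, which prolactin induces, had 202 and 120 CPM in control and 118, 18.0 and 172 CPM in SOX4KO lines. Its single-cell levels were 10.5 CPM in GR17, 13.0 in GR18 and 75.5 in GR19.

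**Figure D5:**
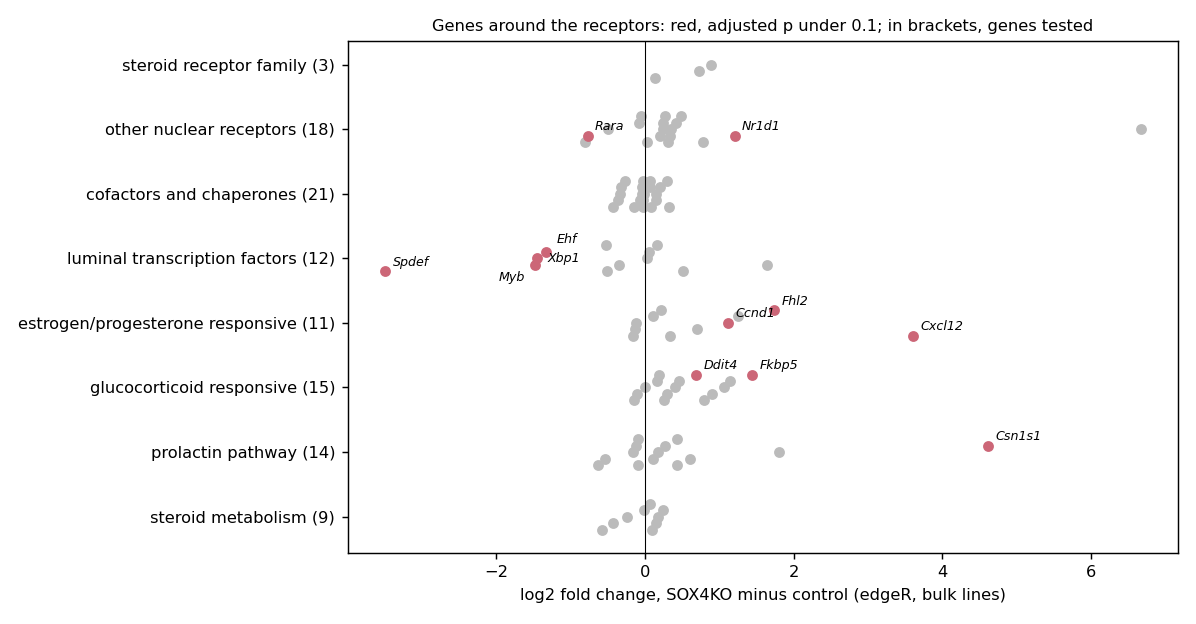
Log2 fold change (SOX4KO minus control, edgeR, bulk lines) of each tested gene in the 8 lists, in red and named where the adjusted p was under 0.1. Csn1s1 lies farthest right among the called genes and Spdef farthest left, and the grey point near 6.67 is Rarb.

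Over the lists 12 genes were called in bulk, and the single cells can be set beside 11 of them, all but Spdef. The sign was that of the bulk lines in both SOX4KO libraries for 6 (Nr1d1, Myb, Cxcl12, Fkbp5, Ddit4 and Csn1s1) and the opposite in both for 5 (Rara, Xbp1, Ehf, Ccnd1 and Fhl2). A sign was scored at any size, as for log2 differences in GR19 of 0.04 for Nr1d1 and 0.10 for Ehf. The share over all called genes was not taken, so nothing is read from this split.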

How the data were processed

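For the bulk lines the authors deposited unnormalized read counts of each Ensembl gene, and for each single-cell plate unnormalized UMI counts of each gene and well. The submitters' processing notes name STAR 2.4.2a, HTSeq, Picard, R 3.6.1, Seurat, edgeR and DESeq, and the builds NCBIM37 and mm9, without their roles. The bulk kit kept strand; the strand setting of the counting is not given in the sources used here. The rows that name no gene held 71.6 to 83.9% of bulk counts and were left out, as were 77 spike-in rows of the plates. Symbols and exon lengths came from GENCODE (GRCm38) and promoter windows from RefSeq (GRCm38.p6), so no coordinate is joined to a count.

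Bulk counts were fitted with edgeR 4.0.16 under R 4.3.3 (low counts removed by filterByExpr, TMM factors, quasi-likelihood test, Benjamini-Hochberg over 11682 genes, called under 0.1), with DESeq2 1.42.0 as an alternative. CPM used TMM library sizes, and standard errors were the log2 fold change over the root of F. A replicate was a line. In simulated data of this bulk design with 200 of 11682 genes changed 3-fold, edgeR recovered 189 with 14 false calls. The simulation changed only genes above a minimum level and gave every gene the same dispersion. It thus checks that the fit runs and does not measure its error rates on these lines. Wells with at least 1000 UMIs were kept (369, 369 and 362 cells), without a doublet caller. Shares of cells were also taken after thinning to 10000 UMIs (334, 330 and 342 cells). Clusters used Seurat 5.3.0 (2000 variable genes less the members, 10 components, resolution 0.5). Likeness was the mean within-library Pearson r among 8836 genes, named at 0.2 or more. Intervals are at 95%, and 3 counts stand as the floor of a 0.

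The members and lists were chosen with earlier results of these data known. Named were the members, up to 3 called genes per direction and list, or the gene of lowest p where none was called; the receptors and targets described otherwise were named after their values were seen. A gene of the wider receptor list is not reported here. Alternatives are given in the closing section.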

Additional observations from a re-analysis of the deposited data

How the results depend on the processing

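The counts of called genes depended most on the control lines: leaving out 1 line gave 30 to 624 genes higher and 26 to 382 lower, with the lowest values without WT3, 93 and 37 without WT1, and 382 lower without M4. Without a low-count filter 1008 were higher and 678 lower, and at an adjusted p under 0.05 they were 241 and 113. Of the members, which carry no test, Esr1, Nr3c1, Foxa1 and Cited1 kept their sign in each alternative, and Prlr ranged from -0.32 without H4 to 0.44 without M4. Csn1s1 ranged from 4.22 to 5.06 and Cxcl12 from 2.96 to 5.02, and both kept their calls. The other 10 named list genes lost theirs without WT3, and 7 of them without WT1. The 70 single-cell differences under other UMI minimums, without deep wells, as means of cells or without mitochondrial UMIs kept their direction or stayed at 0, with Prlr in GR18 at 0.99 in place of 1.04 without deep wells, while the range of Foxa1 over clusters was 1.67 in place of 2.38 (log2) at resolution 0.3. The cause of these shifts was not tested. No paired analysis was possible because the groups share no replicate numbers that pair lines. With 1 control library, single-cell differences have no replicate check.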

Other observations

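These values were noticed after the data were seen. Hsd11b1, which regenerates corticosterone, had 35.0 and 18.9 CPM in WT1 and WT3, and 16.4, 16.2 and 26.8 CPM in H7, M4 and H4, which overlap, with a log2 fold change of -0.42 ± 0.33 (adjusted p = 0.575, edgeR). Hsd11b2, which inactivates corticosterone, had 8 and 19 reads in WT1 and WT3 and 0 in the 3 SOX4KO lines, and it was too low to be tested. In single cells it had 12, 7 and 3 UMIs in GR17, GR18 and GR19. Zbtb16, a gene that glucocorticoids and progestins induce, had 0 reads in both control lines and 5, 2 and 92 reads in H7, M4 and H4. In single cells Zbtb16 had 1, 1 and 6 UMIs in GR17, GR18 and GR19. Igfbp4, an estrogen-responsive gene, had 57 reads in WT1, 2 in WT3 and 0 in the 3 SOX4KO lines, so that 1 control line decides its level.

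Prom1, a surface marker of hormone-sensing luminal cells that is not a member, was lower in SOX4KO in both kinds of data. Its CPM were 49.96 and 47.6 in WT1 and WT3, and 15.9, 13.7 and 15.1 in H7, M4 and H4, a log2 fold change of -1.71 (adjusted p = 0.0092, edgeR's quasi-likelihood test). In single cells it had 54.3 CPM in GR17, 18.6 in GR18 and 13.9 in GR19. Of the 8 markers on the list of hormone-sensing cells other than the members, 4 were tested. Prom1 was the 1 called lower and 0 were called higher, beside 2.17% and 4.10% of all tested genes, and nothing is read from that count. The others tested did not follow it in bulk. Wnt4 had a log2 fold change of 1.26 (adjusted p = 0.229, edgeR), Tbx3 of 0.51 (adjusted p = 0.680, edgeR) and Ly6a of -0.16 (adjusted p = 0.953, edgeR). Their single-cell levels were lower in both SOX4KO libraries. In GR17, GR18 and GR19 Tbx3 had 48, 12 and 17 UMIs, Wnt4 104, 84 and 96, and Ly6a 41, 25 and 30. Areg, too low to test in bulk, had 72, 30 and 14 UMIs. Stc2, Tnfsf11 and Calca had at most 1 UMI a library. Over the clusters Prom1 was highest in the mostly control cluster A, at 59.2 CPM. The basal marker sum there was 4406 CPM, so Prom1 names no cell type here.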
